A study of Mus musculus with 3 samples.

Results

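The 10 genes described here encode sensors of foreign or misplaced nucleic acid, the enzymes that restrain those sensors, and the machinery of necroptosis. They are Zbp1, Eif2ak2 (which encodes PKR), Cgas, Tlr3, Sting1 (formerly Tmem173), Adar, Trex1, Samhd1, Ripk3 and Mlkl. They were chosen by name and function, with earlier results of these data known though by no threshold on a measured value, from the 57010 genes of the deposited table, and all 10 were found there.

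RNA was sequenced from MBT2, a mouse bladder cancer cell line, after knockdown of Asns, which encodes asparagine synthetase. One culture was stably transfected with the shAsns#1 plasmid, 1 with the shAsns#2 plasmid and 1 with a scramble plasmid, and each gave 1 library. Per the study's methods the hairpins were delivered by lentivirus and the cells were selected with puromycin, so all 3 cultures, the scramble control included, had been through transduction and selection. With 1 library for each hairpin and 1 for scramble, no library had a replicate of its own, and both hairpin ratios share the scramble library.

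Cells read double-stranded or left-handed (Z-form) nucleic acid as a sign of infection or damage. ZBP1 binds Z-form nucleic acid and can recruit RIPK3, which phosphorylates the pore-forming protein MLKL and so starts necroptosis. PKR shuts down translation when it meets double-stranded RNA, TLR3 reads double-stranded RNA in endosomes, and cGAS reads cytosolic DNA and signals through STING to the interferon genes. ADAR, TREX1 and SAMHD1 remove, edit or starve the ligands of these sensors, and loss of each is known in human interferon-driven disease.

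The libraries held 19167852 counts with shAsns#1, 22915511 with shAsns#2 and 19326826 with scramble. Asns itself was at 33.5 CPM (counts scaled to a common TMM-adjusted library size) with shAsns#1 and 27.8 CPM with shAsns#2, against 84.4 CPM with scramble (edgeR log2 fold change -1.46, SE 0.15, adjusted p = 0.0071). Of 14 urothelial and epithelial marker genes 5 could be tested, and Krt5, Upk1b and Upk3a, which mark basal and differentiated urothelium, had no count in any library. The 14 markers summed to 14.9 CPM with shAsns#1 and 17.7 CPM with shAsns#2, against 10.99 CPM with scramble. Krt8 (3.63 and 4.48 CPM, against 1.23) and Gata3 (4.37 and 5.32 CPM, against 2.52) were above scramble with both hairpins. Krt18 and Epcam lay above scramble with 1 hairpin and below it with the other. The 6 fibroblast markers summed to 260.0 and 286 CPM with the hairpins and 268 CPM with scramble, most of it Pdgfra. That sum covers genes that moved in opposite directions. Dcn was at 18.8 and 25.7 CPM with the hairpins against 6.97 CPM with scramble, and Pdgfrb at 16.2 and 22.9 CPM against 33.2 CPM. The part of either marker list in the results was not tested.

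Of the 10 genes, 9 had enough counts to be tested and 1, Zbp1, rose by edgeR's quasi-likelihood test at an adjusted p under 0.05. None fell. Among all 14003 genes tested, 1.14% were called higher and 1.51% lower, 2.65% in all. In genes this was 160 higher and 211 lower, a balance that turned to 740 higher and 517 lower when libraries were scaled to total counts alone. The other 8 tested genes had log2 ratios between -0.40 and 0.63 with either hairpin, with medians of 0.06 for shAsns#1 and 0.05 for shAsns#2, beside medians of 0.00 and -0.00 over all genes tested. In this model both hairpins count as draws from a single condition, and the single scramble culture is taken to have the same spread. Since 1 residual degree of freedom is left, the SEs, intervals and p-values also draw on a spread estimated over all genes tested.

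Zbp1 (chromosome 2, bases 173206612 to 173218923, minus strand, GRCm38) is the gene for the Z-form nucleic acid sensor and is itself known to be induced by interferon. It had 101 counts with shAsns#1 and 172 with shAsns#2, against 27 with scramble. Scaled to library size these were 5.31 CPM with shAsns#1 (95% Poisson interval 4.33 to 6.46) and 7.20 CPM with shAsns#2 (6.16 to 8.36), against 1.45 CPM with scramble (0.954 to 2.11). Both hairpin libraries lay above scramble with no overlap of counting intervals. These intervals, like all others on single libraries here, cover counting error only. The log2 ratio to scramble was 1.86 for the shAsns#1 culture (95% counting interval 1.25 to 2.55) and 2.30 for shAsns#2 (1.72 to 2.96).

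The edgeR log2 fold change of Zbp1 was 2.11 (SE 0.36, 95% interval 1.27 to 2.95, adjusted p = 0.030), a fold of 4.32 with an interval from 2.42 to 7.73. It ranked 224 of 14003 genes by that fold change and 47 of the 160 called higher. The call rests on the scaling and the test, since the edgeR adjusted p was 0.051 with DESeq2 size factors and the limma-voom adjusted p was 0.078, with log2 fold changes of 2.11 and 2.09. It passed under the other 6 of 8 alternatives, and the adjusted p over all 8, by edgeR, DESeq2 or limma, ran from 4.5e-08 to 0.078. Between the hairpins, the level was higher with shAsns#2 than with shAsns#1 by a log2 ratio of 0.44 (0.07 to 0.81), which compares 1 library with 1 library. In bulk RNA, more cells with Zbp1 transcript and more transcript per cell cannot be told apart. Leukocytes are another cell type known to express Zbp1, and their 6 marker genes summed to 0.158 and 0.293 CPM with the hairpins and 0.482 CPM with scramble, with Tyrobp, C1qa and Cd3e at 0 in every library.

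**Figure D1:**
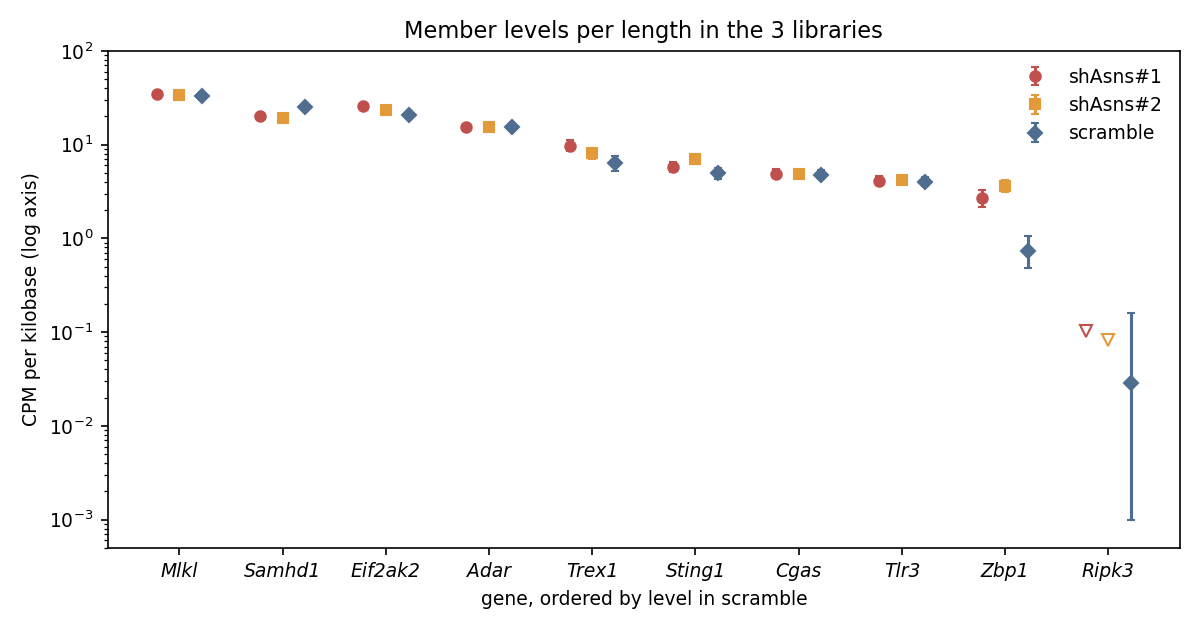
Level of each of the 10 genes in CPM per kilobase of gene length (log axis) in the shAsns#1, shAsns#2 and scramble libraries, 1 library each, with 95% Poisson intervals for counting error; open triangles mark the upper limit where the count was 0. Zbp1 stood at 2.67 with shAsns#1 and 3.62 with shAsns#2, above 0.728 with scramble, while Mlkl, Adar, Cgas and Tlr3 were nearly level across the 3 libraries.

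Eif2ak2 (chromosome 17, bases 78852564 to 78882573, minus strand), the gene for the double-stranded RNA kinase PKR and also known to be interferon-inducible, had 2085 counts with shAsns#1 and 2392 with shAsns#2, against 1674 with scramble. The scaled levels were 110 CPM with shAsns#1 and 100.1 CPM with shAsns#2, against 89.7 CPM with scramble. Both ratios were small, at a log2 of 0.29 (0.20 to 0.38) for shAsns#1 and 0.16 (0.07 to 0.25) for shAsns#2. Counting error alone did not reach 0, but the edgeR log2 fold change of 0.23 did not pass (SE 0.14, 95% interval -0.09 to 0.54, adjusted p = 0.40). PKR and ZBP1 transcripts are both known interferon targets, and here their fold changes were 1.17 for Eif2ak2 and 4.32 for Zbp1. The difference between the 2 genes was not tested.

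The Eif2ak2 promoter is shown because it was the only window searched with a match to the full interferon-stimulated response element (ISRE) type of motif. That element is common in the promoters of interferon-induced genes. Promoter windows from RefSeq, 250 bases before to 50 after each annotated start, were matched for 8 of the 10 genes (not Zbp1 or Sting1), with 11 windows in all. The match began 19 bases after the start. The stretch from 90 bases before to 30 after that start, chr17:78882543-78882662 on the minus strand of GRCm38.p6, reads as follows, with the match in capitals.
Eif2ak2: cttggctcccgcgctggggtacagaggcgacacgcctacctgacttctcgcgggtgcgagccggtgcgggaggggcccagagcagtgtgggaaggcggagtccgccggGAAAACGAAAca
Of 32851 windows of the same length, 3.44% held this motif on either strand, so 1 of the 11 windows here is a description and no test. A motif of the GAS type is an element known from interferon gamma-responsive promoters. It was found in 3 of the 11 windows (of Eif2ak2, Adar and Samhd1) and in 8.3% of all windows.

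Cgas (chromosome 9, bases 78430526 to 78443237, minus strand), which encodes the cytosolic DNA sensor that makes cyclic GMP-AMP, had 377 counts with shAsns#1 and 468 with shAsns#2, against 361 with scramble. That came to 19.8 CPM with shAsns#1 and 19.6 CPM with shAsns#2, against 19.3 CPM with scramble. The 3 libraries were level within counting error, and the edgeR log2 fold change was 0.03 (SE 0.16, 95% interval -0.34 to 0.39, adjusted p = 0.95).

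Tlr3 (chromosome 8, bases 45395665 to 45411080, minus strand), the endosomal receptor for double-stranded RNA, had 345 counts with shAsns#1 and 440 with shAsns#2, against 330 with scramble. Its levels of 18.2 and 18.4 CPM with the hairpins and 17.7 CPM with scramble also lay within counting error of each other (edgeR log2 fold change 0.05, SE 0.16, 95% interval -0.33 to 0.42, adjusted p = 0.91). For Cgas and Tlr3 the edgeR intervals, which run from folds of 0.789 to 1.31 and 0.798 to 1.34, leave room for changes of that size.

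Sting1 (chromosome 18, bases 35733679 to 35740554, minus strand) encodes the adaptor that cyclic GMP-AMP activates. It had 252 counts with shAsns#1 and 382 with shAsns#2, against 212 with scramble, or 13.3 and 16.0 CPM with the hairpins and 11.4 CPM with scramble. The shAsns#2 library was the highest of the 3, and the counting interval of shAsns#1 overlapped that of scramble. Against scramble the log2 ratio was 0.22 (-0.05 to 0.49) for shAsns#1 and 0.49 (0.25 to 0.74) for shAsns#2. Over both, the edgeR log2 fold change was 0.37 and did not pass (SE 0.20, 95% interval -0.09 to 0.82, adjusted p = 0.34).

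Among the genes that restrain sensing, Adar (chromosome 3, bases 89715022 to 89753446, plus strand) encodes the enzyme that edits adenosine to inosine in double-stranded RNA and, with ZBP1, is the other mammalian protein with a Z-form binding domain. Its deposited counts were 1717.36 with shAsns#1 and 2169.68 with shAsns#2, against 1664.1 with scramble. The levels of 90.4 and 90.8 CPM with the hairpins and 89.2 CPM with scramble were indistinguishable within counting error, with an edgeR log2 fold change of 0.02 (SE 0.13, 95% interval -0.27 to 0.32, adjusted p = 0.95). Adar overlaps Chrnb2 on the opposite strand, and the sources used here do not state if strand was used in counting. Chrnb2 held at most 48.32 counts in a library.

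The third RefSeq window of Adar is shown because 1 base separated its match from the longer motif. A form of the motif shorter by that base was chosen after the match was seen. This form occurred in 3 of the 11 windows (of Eif2ak2, Adar and Ripk3) and in 8.56% of all windows. The shorter form began 34 bases after the third annotated start of Adar and 15 bases after the start of Ripk3. The letters below, from chr3:89730734-89730763 on the plus strand and chr14:55788828-55788947 on the minus strand of GRCm38.p6, carry the matches in capitals.
Adar: agccttttcaaggaaacGAAAGTGAActct
Ripk3: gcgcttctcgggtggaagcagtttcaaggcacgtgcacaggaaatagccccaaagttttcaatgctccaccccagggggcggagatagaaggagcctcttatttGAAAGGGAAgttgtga
Of these 3 genes, Eif2ak2 and Adar were not called and Ripk3 was at or near 0 counts.

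Trex1 (chromosome 9, bases 109057933 to 109059734, minus strand) encodes the exonuclease that degrades cytosolic DNA. It had deposited counts of 200.7 with shAsns#1 and 208.05 with shAsns#2, against 126.93 with scramble, which scaled to 10.6 and 8.71 CPM with the hairpins and 6.81 CPM with scramble. Its log2 ratio was 0.63 (0.31 to 0.97) for shAsns#1 and 0.35 (0.03 to 0.69) for shAsns#2. By edgeR the log2 fold change of 0.50 did not pass (SE 0.23, 95% interval -0.04 to 1.03, adjusted p = 0.28). Trex1 lies wholly within Atrip, a checkpoint gene on the same strand, over 1802 bases, and its counts were not whole, so reads had been divided between genes and its level is uncertain. Atrip had log2 ratios of 0.30 and 0.40.

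Samhd1 (chromosome 2, bases 157097533 to 157135265, minus strand), which encodes the enzyme that hydrolyses deoxynucleotides, was the only tested gene of the 9 with a level below scramble in both hairpin libraries. The deposited counts were 1502.55 with shAsns#1 and 1782.06 with shAsns#2, against 1831.07 with scramble, and the levels were 79.1 and 74.6 CPM with the hairpins and 98.1 CPM with scramble. Log2 ratios of -0.31 (-0.41 to -0.21) for shAsns#1 and -0.40 (-0.49 to -0.30) for shAsns#2 exceeded counting error. Over both hairpins the edgeR log2 fold change was -0.35 (SE 0.13, 95% interval -0.65 to -0.06), and it failed the correction with an adjusted p of 0.18. Samhd1 and Zbp1 were the 2 of 9 tested genes with an unadjusted edgeR p under 0.05, a level that 19.8% of all genes tested reached.

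The necroptosis effectors were unlike each other. Ripk3 (chromosome 14, bases 55784995 to 55788865, minus strand), the kinase that links ZBP1 to MLKL, had 0 counts with shAsns#1, 0 with shAsns#2 and 1 with scramble. Ripk3 did not reach the 10 counts in any library needed for a test. All 3 libraries were also under the floor of 3 counts, so no fold is given. The upper 95% Poisson limits were 0.194 and 0.154 CPM with the hairpins and 0.299 CPM with scramble. Mlkl (chromosome 8, bases 111311797 to 111338177, minus strand), the pore-forming effector, had 1321 counts with shAsns#1 and 1624 with shAsns#2, against 1228 with scramble. Its levels were 69.5 and 68.0 CPM with the hairpins and 65.8 CPM with scramble, and the edgeR log2 fold change was 0.06 (SE 0.13, 95% interval -0.23 to 0.36, adjusted p = 0.83).

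**Figure D2:**
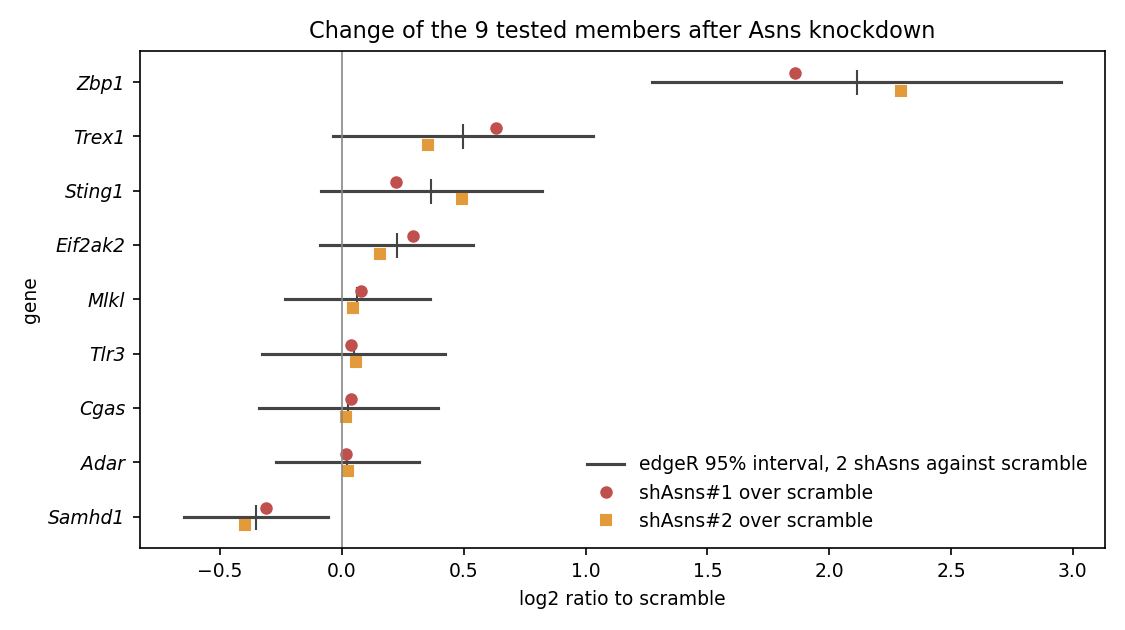
Log2 ratio to scramble of the 9 tested genes, with 1 point per hairpin library and the edgeR log2 fold change as a vertical tick on its 95% interval, before any correction for many genes. Zbp1 lies at 1.86 with shAsns#1 and 2.30 with shAsns#2, and the others lie between -0.40 and 0.63; only Zbp1 passed at an edgeR adjusted p of 0.030.

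Counted by size rather than by test, 2 genes were over 1.5-fold higher than scramble with shAsns#1 (Zbp1 and Trex1) and 1 with shAsns#2 (Zbp1), where 9.91% and 11.9% of all genes tested were. None was over 1.5-fold lower with either hairpin, against 9.03% and 10.8% of all genes. Within 1.5-fold of scramble with both hairpins were 7 of the 9, where 71.6% of all genes were. Only Zbp1 exceeded the log2 ratio of 1.5 that the study's methods use, which 2.52% of all genes did with shAsns#1 and 3.31% with shAsns#2, and none was under -1.5, as 1.61% and 1.39% of all genes were. With both hairpins at once, 7.24% of all genes were over 1.5-fold higher and 5.32% over 1.5-fold lower, and of the 9 only Zbp1 was. The 2 hairpin libraries were never more than 1.5-fold apart in these genes, with log2 ratios of shAsns#2 to shAsns#1 between -0.28 for Trex1 and 0.44 for Zbp1. Across all genes, 6.58% were over 1.5-fold higher and 5.26% over 1.5-fold lower in shAsns#2 than in shAsns#1, with 1.29% above a log2 ratio of 1.5 and 0.786% below -1.5.

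**Figure D3:**
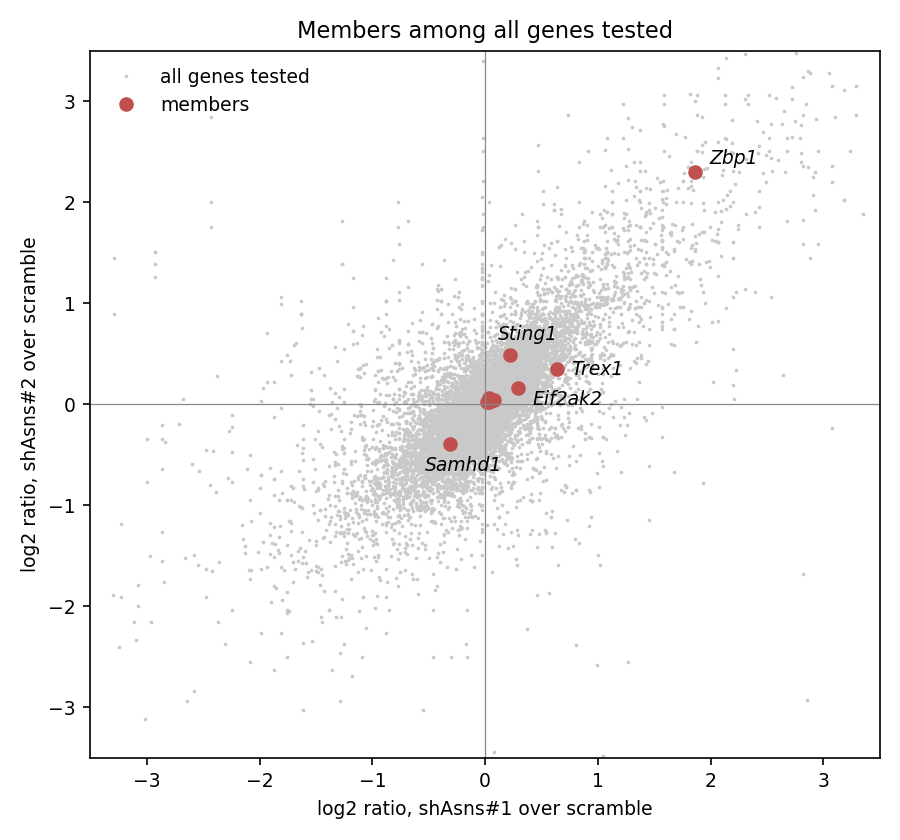
Log2 ratio to scramble with shAsns#1 (x axis) and shAsns#2 (y axis) for all 14003 genes tested (grey) and the 9 tested genes described here (red); both axes share the scramble library and stop at 3.5 in size, which leaves 147 genes outside. Zbp1 sits apart at 1.86 and 2.30, and Adar, Cgas, Tlr3 and Mlkl, the red points without names, sit next to the origin.

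Levels per length gave an order that shifted little between libraries. Mlkl was the highest of the 10 genes in each, at 34.7 CPM per kilobase with shAsns#1 and 33.9 with shAsns#2, against 32.9 with scramble. Eif2ak2 stood second in both hairpin libraries, at 25.4 and 23.2 CPM per kilobase with 20.15 and 18.998 for Samhd1, whereas in scramble Samhd1 was second at 25.0 CPM per kilobase and Eif2ak2 was at 20.8. This exchange of places was larger than counting error in each library.

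Adar came next, at 15.4 and 15.5 CPM per kilobase with the hairpins and 15.2 with scramble. Trex1 followed at 9.76 and 8.03 CPM per kilobase with the hairpins and 6.28 with scramble, ahead of Sting1 at 5.77 and 6.95 with the hairpins and 4.94 with scramble. Trex1 and Sting1 overlapped in their counting intervals with shAsns#2 and with scramble but not with shAsns#1. Cgas (4.90 and 4.84 with the hairpins, 4.78 with scramble) and Tlr3 (4.12 and 4.18 with the hairpins, 4.01 with scramble) were neighbours whose intervals overlapped in all 3 libraries. The intervals of Sting1 and Cgas overlapped with shAsns#1 and with scramble. In scramble those of Sting1 and Tlr3, and of Trex1 and Cgas, overlapped as well, so the order there is not resolved.

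Zbp1 remained the lowest of the 9 tested genes even where it had risen, at 2.67 CPM per kilobase with shAsns#1 and 3.62 with shAsns#2, against 0.728 with scramble. Its interval overlapped that of Tlr3 with shAsns#2 (3.10 to 4.203 for Zbp1, 3.80 to 4.59 for Tlr3) and not in the other libraries. In rank among all genes tested it stood at the 30.1 and 33.6 percentile with the hairpins and the 17.7 percentile with scramble, while Mlkl stood at 82.5 and 82.7 with the hairpins and 80.9 with scramble. Within a library, the Mlkl level per kilobase was 12.99 times that of Zbp1 with shAsns#1 and 9.38 times with shAsns#2, against 45.2 times with scramble.

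The genes whose pair of log2 ratios lay nearest to that of Zbp1, among 10418 with at least 50 counts in 1 library, were Mtus1, Mx2 and Cmpk2, at distances of 0.030, 0.083 and 0.085 on the log2 scale over the 3 libraries. Mx2, an interferon-induced dynamin-like GTPase, had log2 ratios of 1.80 and 2.35 for shAsns#1 and shAsns#2 and rose (edgeR log2 fold change 2.12, SE 0.36, adjusted p = 0.029). Like Zbp1, Mx2 missed the threshold with DESeq2 size factors (edgeR adjusted p = 0.052) and with limma-voom (adjusted p = 0.079). Cmpk2, a mitochondrial nucleotide kinase gene also known to be interferon-induced, had ratios of 1.93 and 2.25 and rose (edgeR log2 fold change 2.11, SE 0.27, adjusted p = 0.012). Mtus1, a gene for a microtubule-associated protein, had 35 and 58 counts with the hairpins and 9 with scramble and did not pass (edgeR adjusted p = 0.089), though it did with total counts (0.011) and with no count filter (0.0013). Likeness in 2 ratios that share a library is a description only.

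Genes that share a protein domain with these members were read from the Pfam annotation in the deposited table. The RHIM, the short motif through which necroptosis proteins stack on each other, was annotated in 4 genes: Zbp1, Ripk1, Ripk3 and Ticam1. Ripk1, the kinase upstream of RIPK3, was at 49.7 and 54.7 CPM with the hairpins and 48.1 CPM with scramble (edgeR adjusted p = 0.69, counts not whole). Ticam1, which encodes the TLR3 adaptor TRIF, was at 13.6 and 15.3 CPM with the hairpins and 24.2 CPM with scramble. Its edgeR log2 fold change was -0.75 (SE 0.17, adjusted p = 0.063), and the adjusted p was 0.018 with scaling to total counts and 0.0025 with no count filter, so its call depends on those settings. Of the 4 RHIM genes 3 were tested, without Ripk3, and Zbp1, described above, was the only one called. Over all genes tested 2.65% were called, and 1 call in a list this short is a description only.

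The Z-form binding domain was annotated in Zbp1 and Adar, of which the first was called and the other had log2 ratios of 0.02 and 0.03. Adar counts are for the whole gene, so transcripts from its 3 annotated starts were not told apart. A double-stranded RNA binding domain, as in PKR and ADAR, was annotated in 20 genes, of which 18 were tested and 0 were called by edgeR, with log2 ratios between -0.89 and 0.84. As 2.65% of all genes were called, 0 in lists this short is near the background. The Mab-21 fold of cGAS was annotated in 12 genes, of which 7 were tested and 0 were called by edgeR, of which the same holds. Their log2 ratios ran from -0.41 to 0.63.

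The partners of the 10 genes were read from 7 lists together holding 127 genes, of which 111 were tested, 5 rose (4.50%) and 5 fell (4.50%), where 1.14% of all genes tested rose and 1.51% fell. With scaling to total counts these became 17 and 7 of the listed genes. The background moved too, from 160 higher and 211 lower of 14003 genes tested to 740 and 517. The lists were chosen with results known, so the shares are a description and are not independent evidence. Median log2 ratios over the 111 were 0.09 with shAsns#1 and 0.08 with shAsns#2, beside 0.00 and -0.00 over all genes tested. Ifnb1 and the Ifna genes, 15 type I interferon genes together, each had 0 counts in every library, with upper 95% Poisson limits of 0.194 CPM with shAsns#1, 0.154 CPM with shAsns#2 and 0.198 CPM with scramble. By qRT-PCR and, for secreted protein, by ELISA, the paper reports higher IFN-β in MBT2 cells after Asns knockdown. A count of 0 at this depth does not show that the transcript was absent.

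Of 15 interferon receptor and signalling genes, all tested, 2 rose and 1 fell, beside 1.14% and 1.51% of all genes. Usp18, which encodes a negative regulator of the interferon receptor, was at 30.1 and 26.5 CPM with the hairpins and 7.02 CPM with scramble (edgeR log2 fold change 2.01, SE 0.19, adjusted p = 0.0057, counts not whole). Irf9, a transcription factor gene of the interferon response, rose by a log2 fold change of 0.88 (adjusted p = 0.025, edgeR). Stat2, also a transcription factor gene of that response, had log2 ratios of 0.51 and 0.55 and did not pass (edgeR adjusted p = 0.095), but it passed with total counts (0.020) and with no count filter (0.032). The gene that fell was Ifngr2, a chain of the interferon gamma receptor, with 11.7 and 13.02 CPM with the hairpins and 26.9 CPM with scramble (edgeR log2 fold change -1.12, adjusted p = 0.018).

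In the list for cGAS-STING signalling, which also holds genes that act on cGAS, STING or cyclic GMP-AMP, 13 of 14 genes were tested. Of these, 1 rose and 0 fell (all genes, 1.14% and 1.51%). Irf7, an interferon-inducible transcription factor, was at 24.1 and 27.2 CPM with the hairpins and 9.38 CPM with scramble (edgeR log2 fold change 1.45, SE 0.18, adjusted p = 0.011). The kinase gene Tbk1, which STING engages, had log2 ratios of -0.09 and 0.04, and Irf3, the factor that TBK1 phosphorylates, had 0.33 and 0.27. Neither passed (edgeR adjusted p = 0.95 for Tbk1 and 0.33 for Irf3). The list medians were 0.17 with shAsns#1 and 0.11 with shAsns#2.

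Of 16 other cytosolic DNA sensor genes, chiefly the mouse Ifi200 family, 13 were tested and none was called by edgeR (all genes, 1.14% higher and 1.51% lower). In a list this short that is near the background. The list medians were 0.35 and 0.37. Ifi205, Ifi207, Mndal and Ddx41, named after their values were seen, had an unadjusted edgeR p under 0.05, which 19.8% of all genes tested reached. So did Aim2, the inflammasome DNA sensor, which was at 39.3 and 40.6 CPM with the hairpins and 24.9 CPM with scramble (edgeR adjusted p = 0.056). Aim2 passed by edgeR with total counts (adjusted p = 0.0032), with no count filter (0.0034) and with at least 10 counts required in every library (0.045). Of the 21 Toll-like receptor and adaptor genes, 12 were tested and none was called by edgeR, which is again near the background of 1.14% and 1.51%. Their medians were -0.09 and -0.05. The nucleic acid receptors Tlr7, Tlr8 and Tlr9 had too few counts to be tested, so Tlr3 was the measured nucleic acid receptor of this family.

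Around PKR, 16 genes of the integrated stress response were tested, 1 rose and 2 fell, again beside 1.14% and 1.51% of all genes. Dnajc3, which encodes P58IPK, a known inhibitor of PKR and PERK, was at 39.2 and 36.9 CPM with the hairpins and 67.9 CPM with scramble and fell (edgeR log2 fold change -0.84, SE 0.13, adjusted p = 0.025). Eif2b1, a subunit gene of the exchange factor that phosphorylated eIF2 blocks, also fell, at 20.0 and 24.2 CPM with the hairpins and 39.8 CPM with scramble (edgeR log2 fold change -0.85, adjusted p = 0.044). Ddit3, which encodes the stress factor CHOP, rose by an edgeR log2 fold change of 0.70 (adjusted p = 0.039), with counts that were not whole. The calls of both Eif2b1 and Ddit3 were lost with DESeq2 size factors (edgeR adjusted p = 0.068 and 0.056) and with limma-voom (adjusted p = 0.066 and 0.058), and that of Eif2b1 also with the DESeq2 test (0.057) and unrounded counts (0.052). The other eIF2 kinase genes were not called: Eif2ak1 had an edgeR log2 fold change of -0.36, Eif2ak3 of -0.12 and Eif2ak4 of -0.01.

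Beside TREX1, ADAR and SAMHD1, 22 nucleases and nucleic acid modifying enzymes were listed, of which 20 were tested, 1 rose and 1 fell (all genes, 1.14% and 1.51%). Apobec1, which encodes a cytidine deaminase, was at 32.2 and 33.8 CPM with the hairpins and 14.5 CPM with scramble and rose (edgeR log2 fold change 1.18, SE 0.16, adjusted p = 0.015). Rnaseh2c, a subunit gene of the RNase H2 complex that clears RNA:DNA hybrids, fell to 228 and 256 counts with the hairpins, against 423 counts with scramble, at log2 ratios of -0.92 and -1.08 (edgeR SE 0.17, adjusted p = 0.029, counts not whole). That call was lost with the DESeq2 test (adjusted p = 0.058) and limma-voom (adjusted p = 0.051). The other subunit genes were not called, with log2 ratios of 0.01 and 0.03 for Rnaseh2a and -0.35 and -0.22 for Rnaseh2b.

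In the death pathways next to RIPK3 and MLKL, 22 of 23 listed genes were tested, 0 rose and 1 fell (all genes, 1.14% and 1.51%), with medians of -0.10 and -0.02. Casp6, an effector caspase gene, was at 30.2 and 22.98 CPM with the hairpins and 60.2 CPM with scramble (edgeR log2 fold change -1.18, SE 0.18, adjusted p = 0.020). Casp8, whose product cleaves RIPK1 and RIPK3 and so holds necroptosis back, was at 48.2 and 45.5 CPM with the hairpins and 46.4 CPM with scramble (edgeR adjusted p = 0.97).

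**Figure D4:**
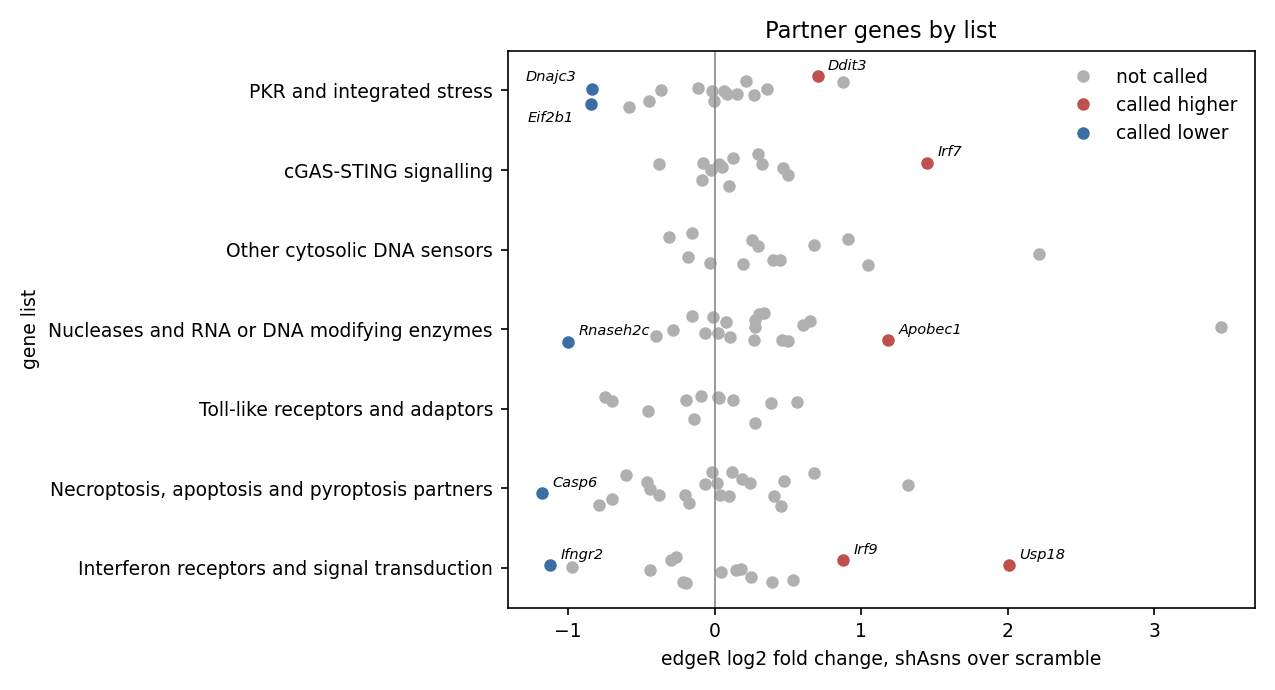
edgeR log2 fold change, 2 shAsns libraries against 1 scramble library, of the 111 tested partner genes in 7 lists, 1 point per gene, with vertical spread added for legibility. Red points are the 5 genes that rose and blue points the 5 that fell at an adjusted p under 0.05; Usp18 at 2.01 and Irf7 at 1.45 are the highest of those that rose.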

How the data were processed

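The authors deposited estimated counts per gene for the 3 libraries, with gene lengths and annotation. Per the labels RNA was isolated with TRIzol from cells in RPMI-1640, while the paper gives a FastPure kit and DMEM. The submitters' processing notes name Bowtie 0.12.2, with counter and genome build not given in the sources used here. A share of values above 0 were not whole (33.0% with shAsns#1, 32.6% with shAsns#2, 32.8% with scramble). Symbols and GRCm38 positions came from GENCODE M21 for 52029 of 57010 IDs, and the others held 1.46% of counts. Promoter sequences came from RefSeq (GRCm38.p6).

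Expected counts were rounded, genes reaching 10 counts in any library entered the tests, and log2 ratios used TMM scaling with a prior count of 0.5. Clopper-Pearson (ratios) and Poisson (levels) intervals at 95% and floors of 3 counts per library cover counting error only. The main test was two-sided edgeR 4.0.16 (glmQLFit, glmQLFTest) of 2 shAsns libraries against 1 scramble library, with Benjamini-Hochberg adjustment over 14003 genes. The biological coefficient of variation was 11.6%. Nothing shows the hairpin libraries to be replicates of one line. Within a gene, the spread behind the p-values comes only from these 2 libraries, since the 1 scramble library adds none. The spread of each gene was moderated toward that of all genes tested. Alternatives used DESeq2 1.42.0 (size factors, Wald test), limma 3.58.1 (voom), total counts, other count filters, unrounded counts and a prior count of 2. Scripts were tested on simulated data.

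The genes and lists were chosen with earlier results of these data known. In each list, up to 4 called genes with the largest mean log2 ratio and at least 50 counts in 1 library were named, with direct partners of the 10 genes and the 3 genes nearest to Zbp1 in both ratios. Predicted genes were left out of that search. Aim2, Ifi205, Ifi207, Mndal, Ddx41, Atrip, Chrnb2, Tlr7, Tlr8 and Tlr9 were named after their values were seen. A listed gene is not reported here and was left out of the list counts. The symbol Ddit3 belongs to more than 1 ID, and the one with more counts was used. Software was Python 3.11.15 with pandas 2.3.3, scipy 1.17.1 and numpy 2.4.6, and R 4.3.3.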

Additional observations from a re-analysis of the deposited data

How the results depend on the processing

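Zbp1 kept a log2 fold change between 2.09 and 2.19 under the 8 alternatives with a test, and between 1.86 and 2.30 with 1 hairpin library left out, which leaves 1 library against 1 and no test. The number of the 10 genes called higher was 1 in the main analysis and 0 with DESeq2 size factors (edgeR adjusted p of Zbp1 0.051) and with limma-voom (0.078), and none was called lower under any alternative. Over all genes, 160 were called higher and 211 lower in the main analysis, against 87 and 122 with DESeq2 size factors, 740 and 517 with total counts, 700 and 856 with no filter beyond 1 count in 1 library, and 55 and 117 with limma-voom. The cause was not tested. Partner genes called higher were 5 in the main analysis, 17 with total counts and 8 with the DESeq2 test, and those called lower were 5 and, with limma-voom, 3. Total counts moved the median of all genes by 0.04 with shAsns#1 and 0.11 with shAsns#2, and put 2 of the genes over 1.5-fold higher with shAsns#2 (Zbp1 and Sting1). The shorter motif, added after seeing the data, matched 3 genes in place of 1. Total counts also turned the log2 ratio of shAsns#2 to shAsns#1 from -0.02 to 0.05 for Cgas and from -0.03 to 0.04 for Mlkl, neither of them called. By edgeR the log2 fold change of Tbk1 became 0.054 with total counts, and that of Eif2ak4 became 0.067 with total counts and 0.00020 with at least 50 counts in 1 library, where the main values were -0.02 and -0.01 and none was called. Other called partners named in the text (Usp18, Irf9, Ifngr2, Irf7, Dnajc3, Apobec1, Casp6 and Cmpk2) passed under all 8 tests. No paired analysis was possible because there was 1 scramble library and the labels give no pairing. With Zbp1 at 27 counts in scramble and Ripk3 at 1 count at most, depth limits these genes most.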
